A study of Mus musculus with 96 samples.

Results

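Genes of steroid hormone synthesis in granulosa cells, the somatic cells of the ovarian follicle, were followed through single-cell RNA libraries of mouse eggs and early embryos. They are Star, Cyp11a1, Fdx1, Hsd3b1, Hsd17b1, Cyp19a1, Akr1cl, Akr1b7, Mgst1 and Inha, 10 of the 36935 gene symbols in the count table, and each of the 10 was found there. The genes come from a given list, and all 10 are described. The list was chosen with earlier results of these data known, so it is not independent of them. The study worked with mice that carry a P620A variant of Padi6, a gene of the egg cytoplasm, and sequenced the polyadenylated RNA of picked cells, either eggs arrested at metaphase II (MII) or blastomeres taken from 2-cell embryos. Its labels give 22 libraries to blastomeres of genotype Padi6MatP620A/+, with the variant from the mother, 22 to oocytes of genotype Padi6P620A/P620A, 22 each to Padi6+/+ blastomeres and Padi6+/+ oocytes, and 8 to negative controls. Every female was primed with pregnant mare serum gonadotropin (PMSG) and then with human chorionic gonadotropin (hCG) about 52 hours later, and was killed about 13 hours after that at an age between 4 and 8 weeks, and the males that gave sperm were 8 to 12 weeks old. Eggs were freed from the oviduct and from the cumulus, the granulosa-derived cells around the egg, with hyaluronidase. Embryos came from in vitro fertilisation, and their zona and polar body were removed. The labels name no strain, no animal and no litter.

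Steroid synthesis starts when Star brings cholesterol to the inner mitochondrial membrane, where Cyp11a1 cuts its side chain with electrons passed on by Fdx1. Hsd3b1 then makes progesterone, and in growing follicles Cyp19a1 (aromatase) and Hsd17b1 complete the path to oestradiol. After the ovulatory surge of luteinising hormone, which hCG imitates, granulosa cells raise Star and Cyp11a1, shut off Cyp19a1 and turn to progesterone. Inha encodes the alpha subunit of inhibin, a hormone of granulosa cells that restrains follicle stimulating hormone. Oocytes and cleaving embryos are not steroid-secreting cells.

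Libraries were sorted by 3 transcripts and not by their stage labels, because many labels go against stage genes. Of 96 libraries, 85 held at least 100000 counts. In 4 of them Gdf9, a growth factor of the oocyte, was under 20 counts per 1000000 counts of the library (CPM), and these are called Gdf9-low. A further 41 had Mos, the kinase that holds the egg at metaphase II, under 100 CPM together with a count of Zfp352, a gene of the 2-cell embryo, and are called 2-cell-like. The other 40 had Mos at 100 CPM or more and are called oocyte-like. No library fell into 2 classes or into none. The Gdf9-low class holds libraries labelled Padi6MatP620A/+ blastomere (libraries 82 and 86), Padi6+/+ blastomere (58) and Padi6+/+ oocyte (13). The 2-cell-like class holds 11 labelled Padi6MatP620A/+ blastomere, 20 labelled Padi6P620A/P620A oocyte, 8 labelled Padi6+/+ oocyte and 2 labelled negative control. The oocyte-like class holds 9 labelled Padi6MatP620A/+ blastomere, 15 labelled Padi6+/+ blastomere, 12 labelled Padi6+/+ oocyte and 4 labelled negative control. Nearest the limits, Gdf9 was 10.5 CPM in library 13 and 63.3 CPM in the next library above 20 CPM, while Mos was 63.3 CPM in the highest 2-cell-like library and 200.6 CPM in the lowest oocyte-like one. Total counts had medians of 535200 in Gdf9-low, 1608305 in 2-cell-like and 3150882 in oocyte-like libraries, within a range of 162539 to 5762563. Apart from the negative controls, each library stands by its label for 1 picked cell. Animals are not named and the classes were set from the same data, so each class counts as 1 sample. There are accordingly no tests and no p-values. Intervals are 95% intervals and cover counting error only, since reads amplified by PCR without molecular identifiers are not independent molecules.

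Most of the steroid genes other than Cyp19a1 formed a block in part of the oocyte-like libraries and in Gdf9-low library 86. Akr1b7 and Hsd17b1 were the least frequent in the oocyte-like class, at 10 CPM or more in 6 and 9 of 40 libraries. Library 86 held 8 of the 10 members at 10 CPM or more and no count of Akr1b7. Gdf9-low libraries 58 and 13 held 5 each, and both lacked Star, Hsd17b1, Akr1b7 and Cyp19a1. The 2-cell-like class held little besides Fdx1, Akr1cl and Cyp19a1. The summed level of the 10 genes was 1465, 1883, 5578 and 14320 CPM in the Gdf9-low libraries. It spanned 16.6 to 598 CPM, with a median of 260 CPM, in 2-cell-like libraries and 228 to 16433 CPM, with a median of 687 CPM, in oocyte-like ones. All 4 Gdf9-low libraries and 22 of 40 oocyte-like libraries lay above the highest 2-cell-like one. In Gdf9-low library 82 the whole 1465 CPM was Fdx1. The remaining oocyte-like libraries overlapped the 2-cell-like range, so the class was not uniform.

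**Figure D1:**
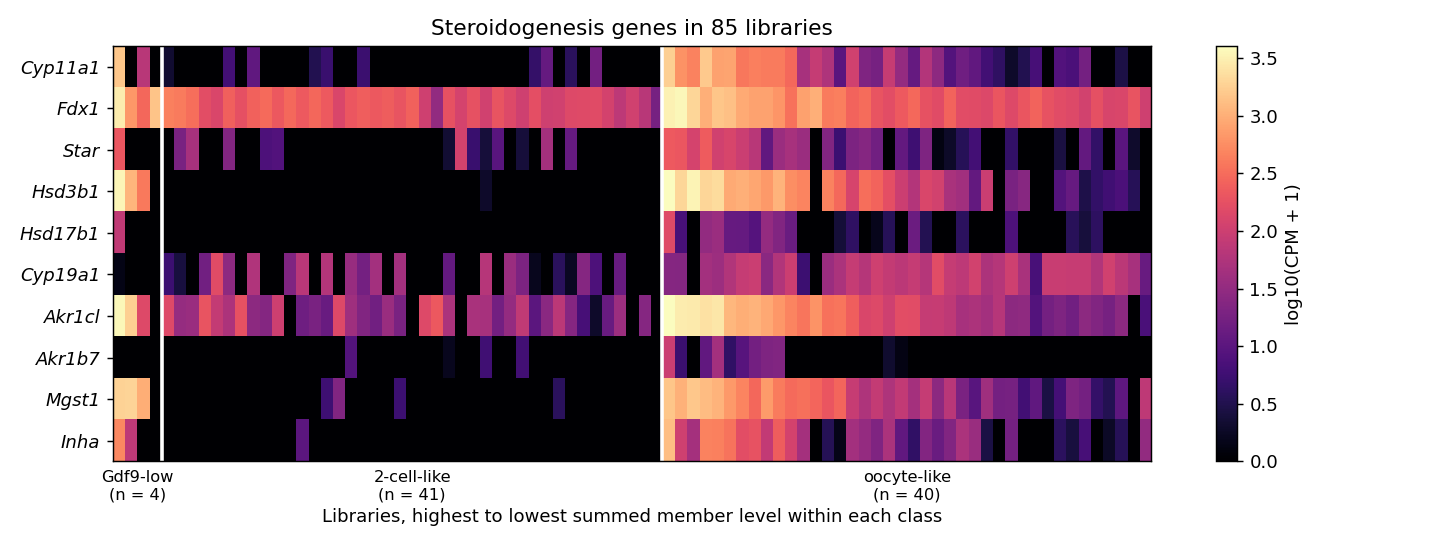
Level of each gene in each of 85 libraries as log10(CPM + 1), with genes in rows and libraries in columns, ordered from the highest to the lowest summed level within the Gdf9-low, 2-cell-like and oocyte-like classes. Bright blocks fill the left of the oocyte-like class and part of the Gdf9-low one, and Fdx1 runs through all 85 libraries. Cyp19a1 does not brighten with the block, with 23.4 CPM in library 61, 23.0 CPM in library 17 and no count in library 23.

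Entry into the pathway was read from Star, Cyp11a1 and Fdx1. Star had 204 CPM in Gdf9-low library 86 and no count in the other Gdf9-low libraries, a range of 0 to 115 CPM (median 0) in 2-cell-like libraries and of 0 to 230 CPM (median 7.08 CPM) in oocyte-like ones. At 10 CPM or more it was present in 1 of 4, 6 of 41 and 19 of 40 libraries in that order of classes. The 2-cell-like maximum came from library 73, which held no count of Cyp11a1, Hsd3b1, Mgst1 or Inha, and the classes overlapped over most of their range. Cyp11a1 stood at 1542 CPM in library 86, 66.4 CPM in library 13 and 0 in the other Gdf9-low libraries. It ranged from 0 to 15.7 CPM (median 0) in 2-cell-like libraries and from 0 to 1773 CPM (median 18.6 CPM) in oocyte-like ones. For Cyp11a1, 22 of 40 oocyte-like libraries exceeded every 2-cell-like library, and 5 held no count.

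Fdx1, the ferredoxin that many mitochondrial enzymes other than Cyp11a1 also use, was the member found everywhere. Its level was 286, 658, 1465 and 2975 CPM in the Gdf9-low libraries, 16.6 to 446 CPM (median 173 CPM) in 2-cell-like and 105 to 3562 CPM (median 244 CPM) in oocyte-like libraries. A count of Fdx1 was present in each of 85 libraries, and because of it the summed level of the 10 genes passed 10 CPM in all of them. Only the upper end separated the classes, with 12 of 40 oocyte-like libraries above every 2-cell-like one.

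Hsd3b1, which makes progesterone from pregnenolone, was nearly confined to the Gdf9-low and oocyte-like classes. It stood at 3483, 1125 and 402 CPM in Gdf9-low libraries 86, 58 and 13 and at 0 in library 82. Of 41 2-cell-like libraries, 40 held no count and library 32 held 2 counts, or 0.970 CPM. In oocyte-like libraries it ranged from 0 to 4025 CPM with a median of 103.8 CPM, and 35 of 40 lay above every 2-cell-like library. Hsd3b1 has close relatives in the genome. Of these, Hsd3b6 had a pooled level of 0.277 CPM in Gdf9-low, 0.484 CPM in 2-cell-like and 1.47 CPM in oocyte-like libraries, and Hsd3b7, an enzyme of bile acid synthesis, had 0, 207 and 241 CPM. How reads shared between such relatives were counted is not given in the sources used here, so single values of Hsd3b and Akr1 genes are uncertain.

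The oestrogen branch was read from Hsd17b1 and Cyp19a1, and these genes differed from each other. Hsd17b1, which converts oestrone to oestradiol, had 76.6 CPM in library 86 and no count in the other Gdf9-low libraries. It had no count in any of the 41 2-cell-like libraries and 0 to 150 CPM (median 0.946 CPM) in oocyte-like ones, with library 61 at the top and 19 libraries at 0. Cyp19a1 had 1 count in library 86, or 0.421 CPM, and none in the other Gdf9-low libraries. It ranged from 0 to 155 CPM (median 1.59 CPM) in 2-cell-like and from 0 to 160 CPM (median 61.5 CPM) in oocyte-like libraries. Cyp19a1 reached 10 CPM in 0 of 4 Gdf9-low, 17 of 41 2-cell-like and 36 of 40 oocyte-like libraries, and 1 oocyte-like library exceeded the 2-cell-like maximum. Most oocyte-like libraries held it at similar levels, with quartiles of 41.3 and 88.0 CPM, while Gdf9-low library 86, which had 3483 CPM of Hsd3b1 and 3646 CPM of Akr1cl, held next to none.

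Akr1cl and Akr1b7 encode aldo-keto reductases. Akr1b7 is known from the mouse adrenal cortex, where it detoxifies the aldehyde that side-chain cleavage releases. Akr1cl reached 3646, 1760 and 147 CPM in Gdf9-low libraries 86, 58 and 13 and 0 in library 82. It ranged from 0 to 216 CPM (median 27.1 CPM) in 2-cell-like libraries and from 0 to 4045 CPM (median 118 CPM) in oocyte-like ones. Akr1cl was therefore the member, after Fdx1, found most often in the 2-cell-like class, at 10 CPM or more in 33 of 41 libraries, against 37 of 40 oocyte-like ones. Akr1b7 was the rarest member, with no count in the Gdf9-low class, 0 to 7.54 CPM in 2-cell-like and 0 to 94.9 CPM in oocyte-like libraries. Its median was 0 in each class, and it reached 10 CPM in 6 oocyte-like libraries and in no other.

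Mgst1 is a membrane-bound glutathione transferase with a broad role in detoxification. It stood at 1885, 1963 and 981 CPM in Gdf9-low libraries 86, 58 and 13 and at 0 in library 82. It ranged from 0 to 21.3 CPM (median 0) in 2-cell-like and from 0 to 1549 CPM (median 71.2 CPM) in oocyte-like libraries, and 26 of 40 oocyte-like libraries lay above every 2-cell-like one. Mgst1 was the member with Gdf9-low libraries above the oocyte-like maximum, 2 of 4. Inha had 509 CPM in library 86, 71.8 CPM in library 58 and no count in libraries 13 and 82. In 2-cell-like libraries it was at 0 in 40 of 41 and at 9.28 CPM in library 34, and in oocyte-like ones it ranged from 0 to 1341 CPM with a median of 20.9 CPM.

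**Figure D2:**
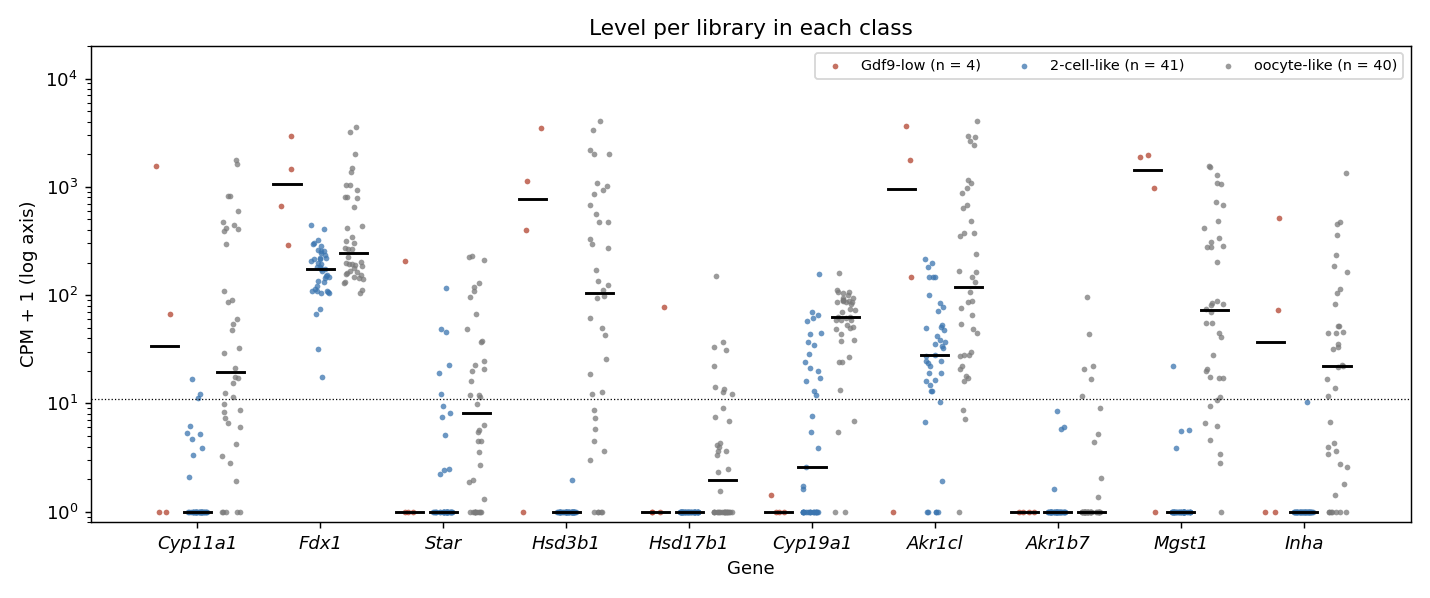
CPM + 1 of each gene on a log axis, 1 point per library, in 4 Gdf9-low, 41 2-cell-like and 40 oocyte-like libraries, with bars at class medians and a dotted line at 10 CPM. Points of Hsd3b1, Mgst1 and Inha lie at or near 0 across the 2-cell-like class and spread over several orders of magnitude in the oocyte-like class, while Cyp19a1 in the oocyte-like class gathers around 61.5 CPM.

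Levels were compared between genes after division by transcript length, taken as bases of the GENCODE M21 transcripts. Among Gdf9-low medians the order was Mgst1 at 1228, Akr1cl at 541, Hsd3b1 at 412, Fdx1 at 385, Inha at 24.3 and Cyp11a1 at 15.7 CPM per kb, with the rest at 0. Among 2-cell-like medians Fdx1 led at 62.8, followed by Akr1cl at 15.4 and Cyp19a1 at 0.650 CPM per kb, and the other members were at 0. Among oocyte-like medians Fdx1 stood at 88.5, Akr1cl at 67.0, Mgst1 at 61.1, Hsd3b1 at 56.0, Cyp19a1 at 25.1, Inha at 14.2, Cyp11a1 at 8.76, Star at 1.75 and Hsd17b1 at 0.707 CPM per kb, and Akr1b7 at 0. Neighbours in each of these orders did not differ beyond their spread over libraries, since the ranges of neighbouring genes overlap.

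The members appeared together. Cyp11a1, Hsd3b1 and Star were jointly present, each at 10 CPM or more, in 1 of 4 Gdf9-low libraries, in 0 of 41 2-cell-like libraries, which allows a share of up to 7.32% at 3 counts and of 8.60% by the exact binomial upper limit, and in 18 of 40 oocyte-like libraries (45.0%, exact binomial interval 29.3% to 61.5%). Without libraries labelled negative control the oocyte-like count was 17. After each library was thinned to 100000 counts, the count was again 18 in the oocyte-like and 0 in the 2-cell-like class. Hsd3b1, Akr1cl and Mgst1 were jointly present in 3 of 4 Gdf9-low, 0 of 41 2-cell-like and 27 of 40 oocyte-like libraries (67.5%, 50.9% to 81.4%). At least 3 of the 10 members were present in 3 of 4, 20 of 41 and 38 of 40 libraries, but the combinations differed. Of the 41 2-cell-like libraries, 13 held Akr1cl and Fdx1, 13 held these and Cyp19a1, and 4 held Fdx1 alone. Outside Fdx1, Akr1cl and Cyp19a1, none of the other 7 members was present in 1 of 4 Gdf9-low, 32 of 41 2-cell-like and 6 of 40 oocyte-like libraries. All 10 were present in 5 libraries, each oocyte-like.

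Presence was partly nested among oocyte-like libraries. Each of the 19 libraries with Star also had Cyp11a1, Akr1cl and Mgst1, and these were 76.0% of the 25 with Cyp11a1, 51.4% of the 37 with Akr1cl and 59.4% of the 32 with Mgst1. All 29 libraries with Hsd3b1 had Akr1cl, which is 78.4% of the libraries with Akr1cl. The 6 libraries with Akr1b7 all had Cyp11a1, Hsd3b1, Star, Inha and Mgst1. Akr1cl was present in 92.5% and Mgst1 in 80.0% of all oocyte-like libraries, so most libraries with another member would hold them in any case. Nesting was not complete. Hsd3b1 was present in 18 of the 19 libraries with Star and in 23 of the 25 with Cyp11a1. Cyp11a1 was present in 21 of the 24 libraries with Inha, and Star in 8 of the 9 with Hsd17b1.

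Across the 40 oocyte-like libraries, 9 of the 10 genes followed the mean of the other 9 on the log2(CPM + 1) scale. Pearson's r was 0.92 for Cyp11a1 (Spearman's rho 0.91), 0.89 for Akr1cl (0.90), 0.87 for Hsd3b1 (0.93), 0.86 for Mgst1 (0.88), 0.86 for Star (0.85), 0.86 for Inha (0.82), 0.80 for Fdx1 (0.73), 0.77 for Akr1b7 (0.71) and 0.74 for Hsd17b1 (0.65). Without the 2 libraries farthest from the median, r lay between 0.67 for Hsd17b1 and 0.91 for Cyp11a1. Cyp19a1 was the exception at -0.16 (rho -0.24), and -0.14 without those 2 libraries. Among pairs, r was highest for Akr1cl with Mgst1, at 0.93, and lowest for Cyp19a1 with Fdx1, at -0.50. Within the libraries labelled Padi6MatP620A/+ blastomere (n = 9), Padi6+/+ blastomere (n = 15) and Padi6+/+ oocyte (n = 12), r for Cyp11a1 was 0.94, 0.89 and 0.92, and r for Cyp19a1 was -0.37, 0.05 and -0.14. In 2-cell-like libraries r was 0.27 or less for each of the 9 members with any count. These values describe single libraries that share preparation, and depth differs between them. The summed level had a Spearman's rho of -0.14 with total counts (Pearson's r -0.07, or -0.18 without the 2 farthest libraries), of -0.28 with Mos and of 0.42 with the number of genes with a count.

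**Figure D3:**
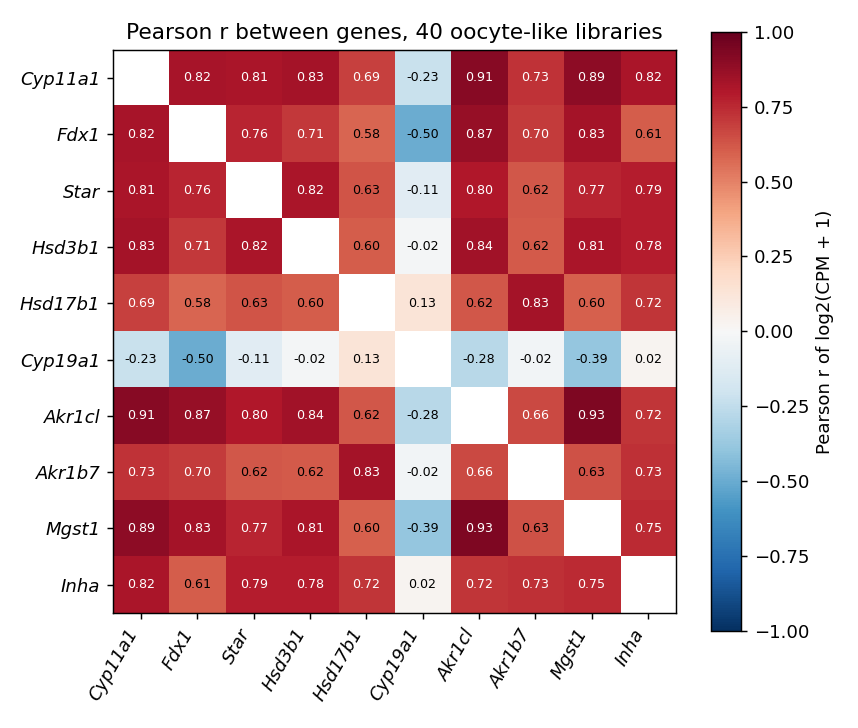
Pearson's r between log2(CPM + 1) of each pair of genes over 40 oocyte-like libraries, from -1 to 1. Values are high throughout, up to 0.93 for Akr1cl with Mgst1, except in the row and column of Cyp19a1, which reach -0.50 with Fdx1.

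**Figure D4:**
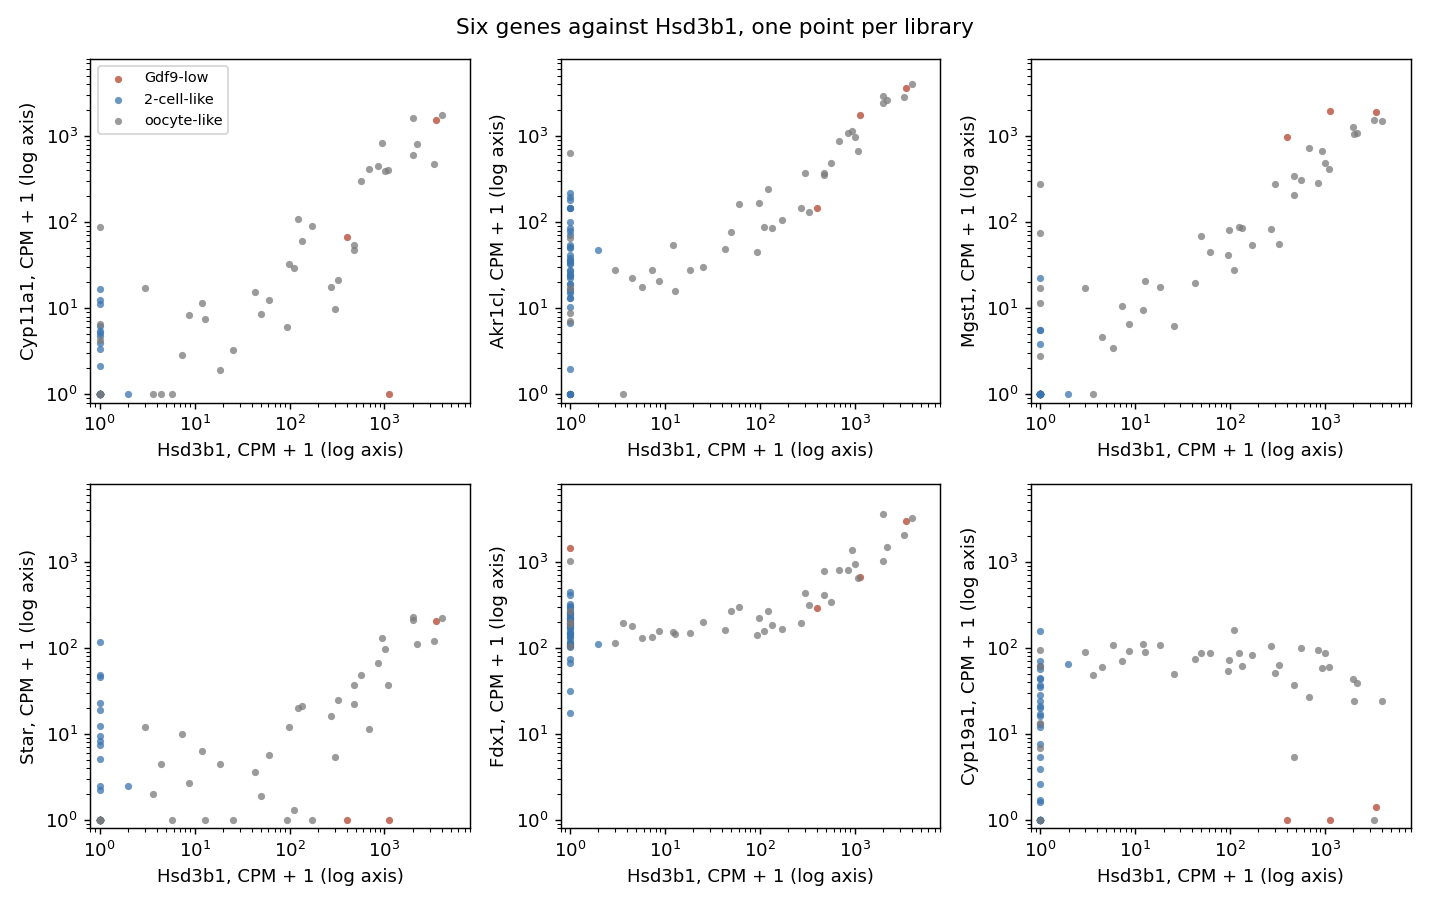
CPM + 1 of Cyp11a1, Akr1cl, Mgst1, Star, Fdx1 and Cyp19a1 against Hsd3b1 on log axes, 1 point per library, coloured by class. Akr1cl and Mgst1 run along the diagonal with Hsd3b1, Fdx1 turns upward from a base near its median of 244 CPM, and Cyp19a1 does not rise with Hsd3b1.

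Because these genes appeared together, the 250 bases before their transcription starts were read from RefSeq (GRCm38.p6, an earlier build than the GRCm39 of the counts), which gave 12 windows for 8 members. Each was searched on both strands for AGGTCA, the core letters of many nuclear receptor sites, for AAGGTCA, the longer form used by the steroidogenic factors Nr5a1 and Nr5a2 and which contains AGGTCA, for the cAMP response element TGACGTCA and for the GATA letters GATAAG. The letters AGGTCA were found in 4 of 12 windows, of Cyp11a1, Inha, Cyp19a1 and Akr1b7, against 14.0% of all 32841 windows. The longer form was found in 1, of Akr1b7, against 4.08%. TGACGTCA and GATAAG were found in none, against 1.55% and 6.55%. A match describes letters and not a site in use. Shown are windows of genes that appeared together, with and without AGGTCA, and of Cyp19a1, which did not follow them. They are the second window of Cyp11a1 (chr9:58014702-58014951, plus strand), the windows of Inha (chr1:75507359-75507608, plus strand), Hsd3b1 (chr3:98859795-98860044, minus strand) and Akr1cl (chr1:65032760-65033009, minus strand) and the first window of Cyp19a1 (chr9:54268165-54268414, minus strand), each printed 5′ to 3′ on the gene's strand with the match in capitals.
Cyp11a1: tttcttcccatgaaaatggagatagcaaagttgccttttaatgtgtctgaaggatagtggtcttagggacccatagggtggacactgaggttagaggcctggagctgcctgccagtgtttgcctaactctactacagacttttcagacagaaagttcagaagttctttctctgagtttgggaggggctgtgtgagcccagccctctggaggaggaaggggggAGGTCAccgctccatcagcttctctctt
Inha: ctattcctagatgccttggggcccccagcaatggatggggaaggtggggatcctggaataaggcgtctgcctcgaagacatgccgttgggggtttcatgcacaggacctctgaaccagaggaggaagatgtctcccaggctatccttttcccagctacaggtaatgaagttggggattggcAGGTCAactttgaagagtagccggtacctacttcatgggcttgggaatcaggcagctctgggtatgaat
Hsd3b1: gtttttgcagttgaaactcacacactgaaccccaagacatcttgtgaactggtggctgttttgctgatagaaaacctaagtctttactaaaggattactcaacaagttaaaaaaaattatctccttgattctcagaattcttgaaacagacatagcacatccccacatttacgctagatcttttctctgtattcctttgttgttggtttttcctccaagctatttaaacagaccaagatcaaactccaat
Akr1cl: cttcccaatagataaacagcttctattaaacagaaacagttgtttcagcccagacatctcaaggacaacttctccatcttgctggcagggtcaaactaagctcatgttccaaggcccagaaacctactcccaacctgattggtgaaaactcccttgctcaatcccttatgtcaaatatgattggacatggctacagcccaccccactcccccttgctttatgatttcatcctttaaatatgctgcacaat
Cyp19a1: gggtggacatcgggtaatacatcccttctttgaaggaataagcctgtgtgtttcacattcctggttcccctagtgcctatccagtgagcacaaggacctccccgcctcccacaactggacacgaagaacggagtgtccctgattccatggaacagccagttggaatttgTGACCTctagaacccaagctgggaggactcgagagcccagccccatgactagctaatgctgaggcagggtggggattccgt
The letters begin 28 bases before the start in Cyp11a1, 69 in Inha and 81 in Cyp19a1, where the match is on the opposite strand. The windows of Hsd3b1 and Akr1cl, whose levels followed those of Cyp11a1, hold no match to these motifs.

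Where the genes were abundant, some proportions were alike and others were not. The 15 libraries with the highest summed level were Gdf9-low libraries 86 and 58 and 13 oocyte-like libraries. In library 86, Akr1cl made up 26.5%, Hsd3b1 24.0% and Mgst1 20.7% of the summed CPM per kb, against 25.7%, 24.3% and 14.5% in oocyte-like library 61, which had the highest sum of all. Star made up 0.644% and 0.616%. The ratio of Akr1cl to Hsd3b1 CPM lay between 0.619 and 1.56 in 14 of the 15. In the same 14, the ratio of Mgst1 to Hsd3b1 spanned 0.332 to 1.74, that of Cyp11a1 to Hsd3b1 0 to 0.890 and that of Inha to Hsd3b1 0.0134 to 0.380. Star to Cyp11a1 spanned 0 to 0.778 over the 14 libraries with Cyp11a1. Inha made up 4.41% of the sum in library 86, against 10.2% in library 61. Library 64 could not give a ratio to Hsd3b1, with 630 CPM of Akr1cl, 277 CPM of Mgst1 and no count of Hsd3b1, in 325422 counts. Library 58 also stood apart, since Mgst1 made up 47.1% of its sum and Cyp11a1 had no count.

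**Figure D5:**
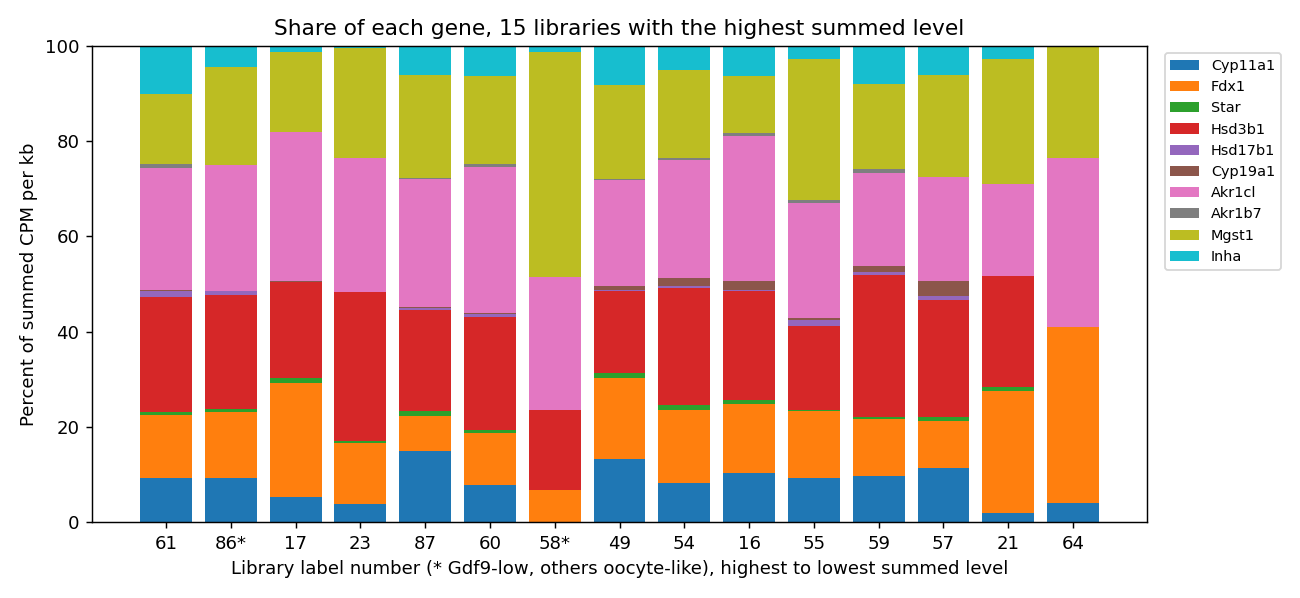
Percent of the summed CPM per kb from each gene in the 15 libraries with the highest sum, as stacked bars from 0 to 100, ordered from the highest sum. Akr1cl, Hsd3b1, Mgst1 and Fdx1 make up most of each bar, and libraries 58 and 64 depart from the pattern.

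Pooled levels, the summed counts of a class over its summed totals, were compared between classes for genes with at least 10 CPM in either class. In Gdf9-low over oocyte-like libraries, 8 of 9 members compared were at least 2-fold higher and 1 was at least 2-fold lower, beside 41.9% of 11037 genes higher and 37.8% lower. Hsd3b1 was 4.54-fold higher (4.44 to 4.65), at 2373 CPM against 522 CPM, and Cyp11a1 5.03-fold higher (4.86 to 5.21), at 1019 CPM against 203 CPM. The range of the other 6 was 3.24-fold for Inha to 5.58-fold for Mgst1. Cyp19a1 was lower, at 0.277 CPM on 1 count against 67.2 CPM, a ratio of 0.00412 (0.000104 to 0.0229). The members' median log2 ratio was 2.13, against 0.27 over all genes.

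These ratios rest on library 86, which held from 84.0% of the class's counts of Fdx1 to 100% of those of Star, Hsd17b1 and Cyp19a1. Without it 0 of the 9 were at least 2-fold higher, and Cyp11a1 had a log2 ratio of -3.72, Hsd3b1 of -1.09, Akr1cl of -1.07, Inha of -3.43, Star of -3.87 and Hsd17b1 of -2.15, the last 2 against a class with no counts set to 3 counts. Mgst1 and Fdx1 kept positive log2 ratios of 0.96 and 0.86. Scaling also moved the count, since 5 members were at least 2-fold higher with TMM-scaled totals and 2 with DESeq2 size factors. Beside these counts, 2465 of 10421 genes were higher with TMM and 2112 of 10173 with DESeq2. These scalings moved the median of all genes from 0.27 to -1.30 and -1.57, and the members' median stood 1.86, 2.31 and 2.39 above the median of all genes with total counts, TMM and DESeq2. Genes higher made 52.6% of all calls with total counts, 30.8% with TMM and 26.9% with DESeq2.

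The second comparison shares the oocyte-like libraries with the first. In 2-cell-like over oocyte-like libraries, 9 of 9 members compared were at least 2-fold lower, beside 27.4% of 10025 genes lower and 21.8% higher. Hsd3b1 stood at 0.0293 CPM against 522 CPM, on 2 counts, a 17828-fold difference with an interval of 4935 to 147212. Both counts came from library 32, and without it the class was at the floor of 3 counts and Hsd3b1 was at least 11526-fold lower. Cyp11a1 was 103-fold lower (87.0 to 123), at 1.96 CPM against 203 CPM, and 157-fold without library 43. Mgst1 was 383-fold lower (286 to 525, 708-fold without library 5) and Inha 396-fold lower (250.1 to 668). Without library 34 Inha was 2306-fold lower and without library 61 it was 202-fold lower. Hsd17b1 had no count in the 2-cell-like class and was at least 244-fold lower, against a floor of 3 counts over the class, or at least 114-fold without library 61.

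For the other members the pooled differences were smaller. Akr1cl was 12.3-fold lower (11.8 to 12.7), Star 5.59-fold (5.06 to 6.19), Cyp19a1 3.42-fold (3.23 to 3.63) and Fdx1 3.20-fold (3.14 to 3.27). With medians of libraries in place of pooled levels, this order did not hold. The log2 ratio was then -4.59 for Cyp19a1, -4.29 for Cyp11a1, -4.46 for Inha and -0.49 for Fdx1. Of the 7 members with a median of 10 CPM or more in oocyte-like libraries, 6 were at least 2-fold lower. Star, Hsd17b1 and Akr1b7 had medians under 10 CPM in both classes and were not counted. The share of all genes was not computed for medians. With pooled levels the members' median log2 ratio was -6.69, against -0.05 over all genes. Without library 61 the lower count was 8, because Hsd17b1 then fell under 10 CPM in both classes. Akr1b7 was under 10 CPM in both classes and was not compared. Every member reached 10 CPM in at least 4 oocyte-like libraries, and Hsd3b1, Hsd17b1, Akr1b7 and Inha did so in no 2-cell-like library. Of the 11615 genes at that level in at least 4 oocyte-like libraries, 416 (3.58%) reached it in no 2-cell-like one. With TMM-scaled totals, however, Inha reached that level in 1 2-cell-like library. Fewer cells or fragments of a cell type in a library and less RNA per cell cannot be told apart here.

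Set against the labels, which the classes ignore, high levels were spread unevenly. A summed level of 1000 CPM or more was found in 4 of 22 libraries labelled Padi6MatP620A/+ blastomere, 0 of 20 labelled Padi6P620A/P620A oocyte, 9 of 16 labelled Padi6+/+ blastomere, 5 of 21 labelled Padi6+/+ oocyte and 1 of 6 labelled negative control. Cyp11a1, Hsd3b1 and Star were jointly present in 5, 0, 10, 3 and 1 of these. All 20 libraries labelled Padi6P620A/P620A oocyte were 2-cell-like and all but 1 of the 16 labelled Padi6+/+ blastomere were oocyte-like, so label and class cannot be told apart for them. Among oocyte-like libraries alone, the median summed level was 343 CPM for 9 labelled Padi6MatP620A/+ blastomere, 2022 CPM for 15 labelled Padi6+/+ blastomere and 494 CPM for 12 labelled Padi6+/+ oocyte, with overlapping ranges.

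Negative controls give no background for these genes. Of the 6 kept, 5 had summed levels between 228 and 302 CPM and library 23 had 10402 CPM, with Hsd3b1 at 3330 CPM, Akr1cl at 2861 CPM, Fdx1 at 2030 CPM, Mgst1 at 1549 CPM and no count of Cyp19a1. Library 23 also held Mos at 476 CPM and Gdf9 at 1930 CPM, both within the range of the oocyte-like class. Of the 11 libraries under 100000 counts, library 66 was the one with several members, at 3 counts of Hsd3b1, 3 of Akr1cl, 2 of Mgst1 and 8 of Fdx1 in 42270 counts.

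Other genes of the steroid pathway were described from a list of 36. In Gdf9-low over oocyte-like libraries 27 were compared, of which 11 were at least 2-fold higher and 7 lower, with a median log2 ratio of 0.75, beside 41.9% of all genes higher and 37.8% lower. In 2-cell-like over oocyte-like libraries 23 were compared, of which 1 was higher and 12 lower, with a median of -1.31, beside 21.8% of all genes higher and 27.4% lower. Fdxr, the reductase that feeds electrons to Fdx1, had a pooled level of 367 CPM in Gdf9-low, 2.61 CPM in 2-cell-like and 59.0 CPM in oocyte-like libraries. Akr1c18, which inactivates progesterone, had 1419, 0.645 and 204 CPM in that order, and Tspo, a protein of the outer mitochondrial membrane that binds cholesterol, had 448, 14.6 and 111 CPM. Fst and Inhba, which encode follistatin and an activin subunit, had 228 and 115 CPM in Gdf9-low, 0.0440 and 0.0440 CPM in 2-cell-like, and 82.5 and 19.8 CPM in oocyte-like libraries. Lhcgr, from the granulosa list, had 3.05, 0.0147 and 2.74 CPM in the same order. Cyb5b and Nr5a2, named by the same rule, were not near absence in the 2-cell-like class. Cyb5b had 277, 187 and 101 CPM and reached 10 CPM in 38 2-cell-like libraries. Nr5a2 had 32.4, 20.1 and 24.6 CPM and reached 10 CPM in 23 of them. All Gdf9-low counts of Fdxr and Fst came from library 86.

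Not every pathway gene moved with the members. Over oocyte-like libraries r with the members' mean was 0.91 for Fdxr, 0.89 for Akr1c18, 0.89 for Npc2, 0.88 for Tspo, 0.88 for Fst and 0.88 for Nr5a1, the steroidogenic factor that switches on many of these genes. For genes of cholesterol synthesis it was 0.58 for Sqle and -0.38 for Hmgcs1, and for the receptor Prlr it was 0.04. That r was 0.83 for Inhba, 0.77 for Lhcgr, 0.34 for Nr5a2 and 0.13 for Cyb5b. Cyp17a1, the androgen-making enzyme of theca cells, had no count in Gdf9-low and 2-cell-like libraries and 0.0623 CPM in oocyte-like ones. Fshr, the receptor of follicle stimulating hormone, and Amh, both markers of granulosa cells in growing follicles, had no count in Gdf9-low libraries, 0.366 and 2.52 CPM in 2-cell-like and 1.45 and 0.0267 CPM in oocyte-like ones, and r with the members' mean over oocyte-like libraries was 0.45 for Fshr and -0.11 for Amh. Fshr had a count in 12 of 40 oocyte-like libraries, with 8.32 CPM in library 61.

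Markers of other cell types were measured in the same libraries. Over oocyte-like libraries, Pearson's r between the summed level of a list and the members' mean was 0.87 for 12 cumulus genes, 0.81 for 8 granulosa genes outside the members, 0.72 for 6 oviduct epithelium genes, 0.60 for 5 fibroblast genes, 0.60 for 6 leukocyte genes and 0.57 for 6 theca and interstitial genes. It was 0.31 for 5 red cell genes, 0.04 for 5 endothelium genes, -0.07 for 6 genes of the 2-cell embryo and -0.44 for 8 oocyte genes. The endothelium sum was mostly Pecam1, at 78.1 CPM pooled in oocyte-like libraries and with an r of 0.04. Cdh5, Kdr, Tek and Eng had 0.525 to 3.38 CPM, with r from -0.08 for Kdr to 0.58 for Cdh5. Cumulus genes had a pooled level of 10 CPM or more for 7 of 12 genes in Gdf9-low, 1 in 2-cell-like and 8 in oocyte-like libraries, and their sums ranged from 0 to 688, 0 to 245 and 0 to 4072 CPM. Has2 and Hapln1, which build the cumulus matrix, had no count in the Gdf9-low class, and Ptx3, Hapln1, Thbs1 and Cd44 had none in the 2-cell-like class. Over the 12 cumulus genes, r with the members' mean ran from 0.15 for Has2 to 0.90 for Vcan, a matrix proteoglycan. It was 0.89 for Ptgs2, a prostaglandin synthase of the expanded cumulus, 0.85 for Tnfaip6, 0.83 for Pfkp, 0.61 for Ptx3 and 0.37 for Hapln1. Pfkp was the cumulus gene with a pooled level of 10 CPM or more in the 2-cell-like class. It had 125 CPM in Gdf9-low, 43.1 CPM in 2-cell-like and 29.6 CPM in oocyte-like libraries, and reached 10 CPM in 28 2-cell-like libraries.

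Oviduct epithelium genes passed 10 CPM for 6 of 6 genes in Gdf9-low, 3 in 2-cell-like and 4 in oocyte-like libraries, with sums of 0 to 18507, 0 to 753 and 24.1 to 11751 CPM. Fibroblast genes did so for 4 of 5 genes in Gdf9-low libraries and for 0 in the other classes, with sums of 0 to 995, 0 to 12.1 and 0 to 33.1 CPM. Leukocyte genes did so for 4 of 6, 1 and 2 genes, with sums of 102 to 1138, 0 to 124 and 0 to 415 CPM, and Ptprc and Adgre1 had no count in Gdf9-low libraries. No theca and interstitial gene of the 6 passed 10 CPM in any class, and their sums reached 108, 20.1 and 26.2 CPM. The part of these cell types in the members' levels was not tested.

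The Gdf9-low libraries were not of 1 kind. Library 86 had 1927 CPM of Akr1c18, 558 CPM of Fdxr, 5632 CPM of Ovgp1, the oviduct glycoprotein, and 1500 CPM of Krt18, an epithelial keratin. Library 58 had 3292 CPM of Akr1c18, 2819 CPM of Ovgp1 and 1017 CPM of Inhba. Library 13 had 16248 CPM of Ovgp1 and a fibroblast sum of 995 CPM, beside 402 CPM of Hsd3b1. Library 82 had no member besides Fdx1, and held 2736 CPM of the oocyte gene Bmp15, 767 CPM of the 2-cell gene Zscan4d and 1127 CPM of Tyrobp, a leukocyte gene. Other genes of these lists were mostly low or absent there. Among leukocyte genes, Cd52 had 10.2 CPM and Ptprc, Lyz2, Adgre1 and Csf1r had no count. Among oocyte genes, Ooep had 79.1 CPM and Gdf9, Zp1, Zp2, Zp3, Mos and Padi6 had no count. Among 2-cell genes, Tdpoz4 had 511 CPM, Eif1ad6 386 CPM and Usp17lc 23.0 CPM, while Zfp352 and Tmem92 had no count. 
Outside the lists, the genes whose pattern was most like that of the members were ranked over the 40 oocyte-like libraries by r with the members' mean, among 8084 genes. The first 10 were Ier2 at 0.94, Cpe at 0.94, Nop53 at 0.93, Eno1 at 0.93, Parm1 at 0.93, Sgk1 at 0.93, Reep3 at 0.92, Nrn1 at 0.92, Skil at 0.92 and Rgcc at 0.92. Ier2 is an immediate early gene, Cpe a carboxypeptidase that processes hormone precursors, Eno1 a glycolytic enolase and Sgk1 a hormone-regulated kinase. An r of 0.8 or more was reached by 459 genes, 5.68% of those ranked, while the median was 0.04. Nrn1 had no count in 2-cell-like libraries and 182 CPM in library 86, and Cpe reached 10 CPM in 1 of 41 2-cell-like libraries. Ier2 did so in 26 of 41 and Eno1 in 30 of 41, so likeness over the oocyte-like class did not extend to absence from the 2-cell-like class.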

How the data were processed

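The deposited table holds raw gene counts, whole numbers per gene and library with no normalization. Per the submitters' processing notes, reads were trimmed with Trim Galore 0.4.4 and aligned with HISAT2 2.1.0 to GRCm39. The counting tool, its annotation, its use of strand and its handling of shared reads are not given in the sources used here. Per the labels' protocols, cDNA was amplified in 15 PCR cycles. The 36983 gene entries carry symbols only, and counts of the 48 repeats of a symbol were added together.

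Levels are CPM by total counts. Classes were set by Mos, Zfp352 and Gdf9. Pooled ratios carry exact conditional binomial 95% intervals and a floor of 3 counts over a class, and were called at 2-fold, with no test. The members, lists and thresholds were chosen with earlier results of these data known. Named besides all 10 members are the 10 genes with the highest likeness (at least 10 CPM pooled and a count in 20% of oocyte-like libraries, without predicted and clone names) and up to 4 genes per list by pooled level in Gdf9-low libraries. Npc2, Nr5a1, Sqle, Hmgcs1, Prlr, Fshr, Amh and the genes named as having no count were chosen after their values were seen. Alternatives included TMM scaling (edgeR 4.0.16) and DESeq2 1.42.0 size factors in R 4.3.3; the rest used Python 3.11.15, pandas 2.3.3, numpy 2.4.6 and SciPy 1.17.1. The scripts for ratios and likeness were tested on simulated data.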

Additional observations from a re-analysis of the deposited data

Results flagged for a closer look

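Groups of values were checked for a library far from the others. Each held the levels of a member, or the summed level, in the negative controls or the Gdf9-low libraries. Of 20 such groups, 12 were singled out. The limit used singles out about 1 in 20 by chance for normally distributed values. These values are skewed and hold many zeros, so that rate does not apply to them. The 12 come from 2 libraries. Library 23, labelled negative control, stood far above the other 5 kept libraries with that label for Cyp11a1 (469 CPM), Hsd3b1 (3330 CPM), Star (119 CPM), Akr1cl (2861 CPM), Mgst1 (1549 CPM), Fdx1 (2030 CPM) and the summed level (10402 CPM). Library 86 stood far above the other 3 Gdf9-low libraries for Cyp11a1 (1542 CPM), Star (204 CPM), Cyp19a1 (0.421 CPM, a single count), Hsd17b1 (76.6 CPM) and Inha (509 CPM). In library 86, Star, Cyp19a1 and Hsd17b1 were singled out because the other 3 libraries of the class held no count of them, so the zeros alone fix the result. The members of each set were read in the same library, so they are not independent of each other.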

How the results depend on the processing

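Results were recomputed under 17 other settings and with each of 85 libraries left out in turn. The joint presence of Cyp11a1, Hsd3b1 and Star in 0 of 41 2-cell-like libraries was 0 under every setting run. The 9 lower members in 2-cell-like over oocyte-like libraries were 8 to 9 over the libraries left out. With medians of libraries they were 6 of the 7 members with an oocyte-like median of 10 CPM or more. At 50 CPM as the level of presence, the 3 genes were together in 8 oocyte-like libraries, and at least 3 members in 1 2-cell-like library. At least 5 members in place of 3 were present in 0 2-cell-like libraries. The count of members at least 2-fold higher in Gdf9-low over oocyte-like libraries was 5 with TMM-scaled totals and 2 with DESeq2 size factors. Beside these counts, 2465 of 10421 and 2112 of 10173 genes were higher. With medians of libraries in place of pooled levels the count was 4, and the share of all genes was not computed. Star and Hsd17b1 were not counted there, with medians of 0 in Gdf9-low and of 7.08 and 0.946 CPM in oocyte-like libraries. Their log2 ratios of -3.01 and -0.96 rest on these low medians with 1 CPM added. Over libraries left out the count from pooled levels ranged from 0 (without library 86) to 8. In that comparison the log2 ratio ranged from the value without library 86 to that without library 61, from -3.72 to 2.89 for Cyp11a1, -1.09 to 2.65 for Hsd3b1, -3.87 to 2.28 for Star, -2.15 to 3.33 for Hsd17b1, -1.07 to 2.54 for Akr1cl and -3.43 to 2.66 for Inha. Library 86 holds nearly all counts of these genes in its class. Inha reached 10 CPM in 1 2-cell-like library with TMM or DESeq2. No paired analysis was possible because the labels number the libraries 1 to 96 without repeating a number between groups, and no test was run. Values under 10 CPM rest on few counts in the shallower libraries, and absence at this depth is not absence from the cell.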
